A study of Mus musculus with 28 samples.

Results

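The HOX cluster genes are the 39 genes of the count tables, of 55536, whose symbol is Hox followed by a cluster letter from a to d and a number. Symbols were matched to the Ensembl identifiers through the GENCODE M21 annotation of mouse build GRCm38. HOXA holds 11 of them in 105 kb of chromosome 6, HOXB 10 in 174 kb of chromosome 11, HOXC 9 in 116 kb of chromosome 15 and HOXD 9 in 96.8 kb of chromosome 2. The choice used names alone and no measured value.

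HOX genes encode homeodomain transcription factors that give cells of the embryo an address along the head to tail axis, and along the limb for the genes at the posterior ends of the clusters. Genes of the same number in different clusters are paralogs, and low numbers lie at the anterior end of a cluster and high numbers at the posterior end. Fibroblasts and other mesenchymal cells keep much of the HOX pattern of the body site they came from when they are grown in culture.

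Bulk mRNA sequencing compared 3 wild-type mouse cell lines cultured by themselves or touching cells of a second line, in 7 groups of 4 libraries. EO771 is a breast cancer line, C2C12 is a muscle line used as differentiated myotubes, and MLg is a lung line. EO771, C2C12 and MLg alone were not co-cultured, 1 pair of groups came from a culture of EO771 with C2C12, and another from a culture of EO771 with MLg. No drug or genetic change is named in the labels, and each line stands for a single line, so differences between lines are not differences between tissues.

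Nothing in the labels says that the libraries of a group came from separate cultures, so the p-values speak only of the spread among these libraries, which may be technical. The sources used here do not say how 2 lines cultured together were taken apart. In such bulk libraries, fewer cells of a type and less RNA per cell cannot be told apart.

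Total counts per library ran from 27612567 to 96491326, and a count of 0 allows up to 0.109 counts per 1000000 of the library total (CPM) in the shallowest and 0.0311 CPM in the deepest library, counting error only. Of 10 epithelial and mammary carcinoma markers, 1 reached 1 CPM in EO771 alone, the 10 summed to 93.8 to 98.9 CPM, and Krt19 and Cldn4 had no count. The 12 myotube markers all reached 1 CPM in C2C12 alone, the 10 fibroblast markers summed to 25124 to 29617 CPM in C2C12 alone and 23756 to 30293 CPM in MLg alone, and the lung epithelial genes Nkx2-1 and Sftpa1 had no count in MLg alone. Some libraries stood apart. The C2C12 libraries of R number 3 had low myotube marker sums, of 357 and 636 CPM alone and 689 CPM with EO771, against 3459.7 and 4272 CPM alone and 1963 to 2848 CPM with EO771. In 5 co-cultured libraries every count was even: R3-1, R5-1 and R6-1 of EO771 with C2C12, and R5-1 and R6-1 of MLg with EO771. The files of EO771 with C2C12 R5-1 and R5-2 are named for each other, and each was used for the sample it is deposited under. Below, CPM values are given in the order R3-1, R3-2, R5-1, R6-2 for EO771 alone, R3-1, R5-1, R5-2, R6-1 for both groups from the culture of EO771 with C2C12, R5-1, R6-1, R6-2, R7-1 for both groups from the culture of EO771 with MLg, R2-1, R3-1, R3-2, R5-1 for C2C12 alone and R3-2, R5-2, R6-1, R6-2 for MLg alone.

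The 3 lines grown alone expressed different sets of HOX genes. At a mean of at least 1 CPM there were 14 members in EO771, 18 in C2C12 and 26 in MLg. Of these, 6 reached that level in every line (Hoxa10, Hoxc4, Hoxc6, Hoxc8, Hoxc9 and Hoxc10), 10 in C2C12 and MLg (among them Hoxa5, Hoxa7, Hoxa9, Hoxa13, Hoxc5 and Hoxc13) and 4 in EO771 and MLg (Hoxb3 to Hoxb6). Another 4 did so in EO771 alone of the lines (Hoxd4, Hoxd8, Hoxd9 and Hoxd10), 2 in C2C12 (Hoxa11 and Hoxc11) and 6 in MLg (Hoxa4, Hoxb2, Hoxb7, Hoxb8, Hoxb9 and Hoxb13). The remaining 7 (Hoxb1, Hoxc12, Hoxd1, Hoxd3, Hoxd11, Hoxd12 and Hoxd13) stayed under 1 CPM on average in each of the 7 groups, with Hoxc12 the highest of them in a single library, at 1.29 CPM, and Hoxd1 without a count in any library.

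**Figure D1:**
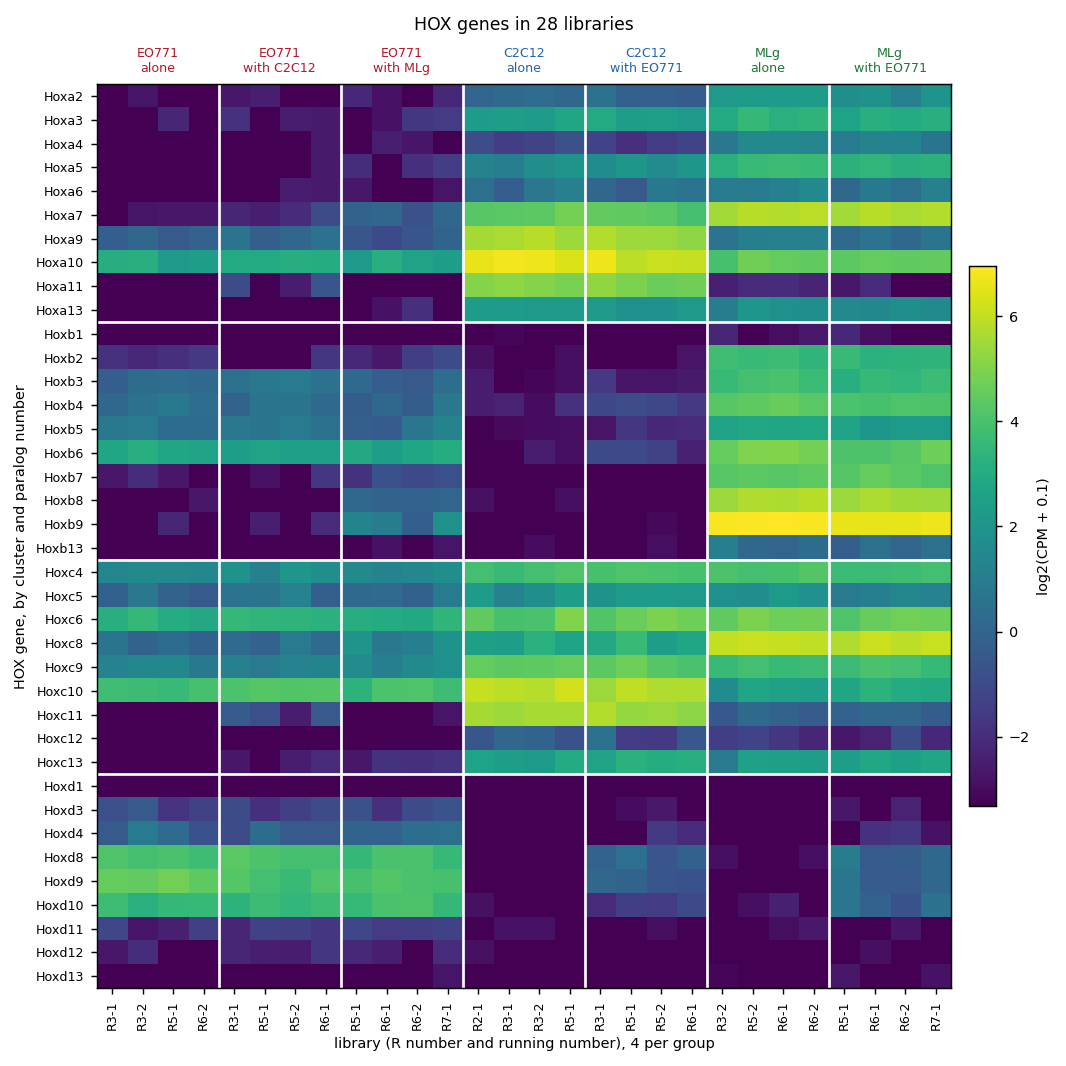
Level of 38 HOX genes (rows, by cluster and paralog number) in the 28 libraries (columns, 4 per group), as log2 of CPM plus a pseudocount of 0.1; darkest cells are 0 or near 0. Hoxd8, Hoxd9 and Hoxd10 are bright in the EO771 groups, the HOXB rows in the MLg groups, and Hoxa11 and Hoxc11 in the C2C12 groups.

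The 4 clusters contributed different shares of the summed level per exon length (CPM per kilobase of exon, RPKM). In EO771 alone, HOXD made up 53.0 ± 3.68% (SD, n = 4) of it, HOXC 30.8 ± 1.89%, HOXB 11.2 ± 1.54% and HOXA 5.07 ± 1.28%. In C2C12 alone, HOXC made up 55.9 ± 3.98% and HOXA 44.0 ± 4.00%, with 0.0495 ± 0.0156% from HOXB and 0.00877 ± 0.00939% from HOXD. In MLg alone, HOXB made up 54.0 ± 1.37%, HOXC 25.5 ± 0.715%, HOXA 20.5 ± 1.33% and HOXD 0.0138 ± 0.00820%. HOXD was near 0 in both host lines, HOXB in C2C12 only, and no cluster was near 0 in EO771.

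**Figure D2:**
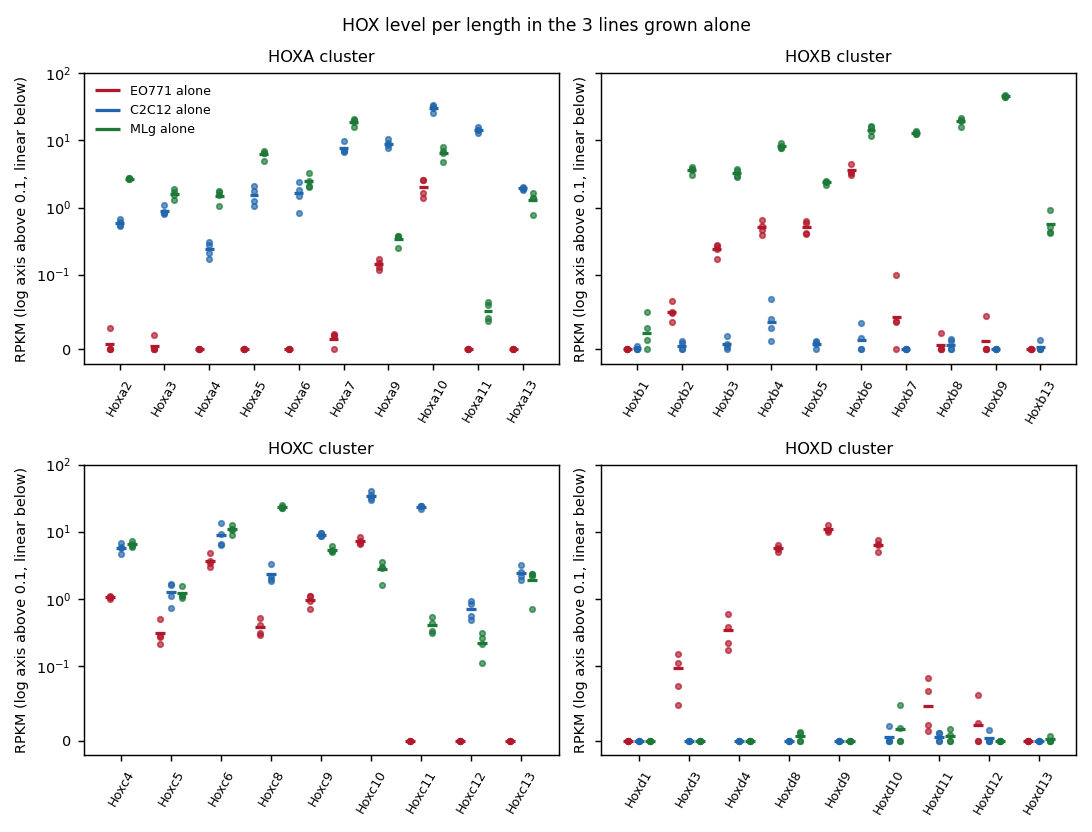
Level per exon length (RPKM, log axis above 0.1 and linear below) of the same 38 HOX genes in the 3 lines grown alone, one panel per cluster with genes in order of paralog number; points are libraries and bars the mean of 4. In EO771 the HOXC and HOXA genes stop after Hoxc10 and Hoxa10, and in C2C12 both go on through Hoxa11 and Hoxc11.

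In EO771 alone, 3 of the 4 highest levels per length were those of neighbouring HOXD genes, with Hoxc10 the other. Hoxd9, which with its paralogs is needed for the mammary gland to develop in pregnancy, was at 22.8, 22.3, 27.1 and 21.1 CPM, or 10.9 ± 1.23 RPKM (SD, n = 4). Hoxd10, a gene of the lumbar spinal cord and the hindlimb, was at 13.5, 9.18, 11.4 and 11.8 CPM, or 6.32 ± 0.982 RPKM. Hoxd8, the next gene on the anterior side, was at 17.5, 15.2, 15.8 and 13.5 CPM, or 5.66 ± 0.600 RPKM. The 3 lie side by side on the plus strand of chromosome 2. Hoxd11, the next gene on the posterior side, had a mean of 0.192 CPM, Hoxd4 was at 0.645, 1.77, 1.11 and 0.505 CPM, and Hoxd3 had a mean of 0.405 CPM. Hoxd4 and Hoxd3 share exon bases on the same strand (52.3% of those of Hoxd4), so their counts may not be fully their own. In C2C12 alone Hoxd8, Hoxd9 and Hoxd4 had no count in any library, and Hoxd10 had 2 counts in all. In MLg alone Hoxd9 and Hoxd4 had no count, Hoxd8 had 4 and Hoxd10 had 8. Against a count of 0 over the group, Hoxd9 was at least 2267-fold higher in EO771 than in C2C12 and at least 2074-fold higher than in MLg, and Hoxd8 was at least 1508-fold higher than in C2C12.

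The bases just before the start of these 3 genes are shown because they are expressed in EO771 and at or near 0 in both host lines alone, beside those of Hoxa11, expressed in C2C12, and Hoxb8, expressed in MLg. Each is the 150 bases before the RefSeq start in build GRCm38.p6, 5′ to 3′ on the strand of the gene, with each CG pair in capitals. The stretches are chr2:74704465-74704614, chr2:74697613-74697762 and chr2:74691741-74691890 on the plus strand, chr6:52245811-52245960 on the minus strand and chr11:96281755-96281904 on the plus strand.
Hoxd8: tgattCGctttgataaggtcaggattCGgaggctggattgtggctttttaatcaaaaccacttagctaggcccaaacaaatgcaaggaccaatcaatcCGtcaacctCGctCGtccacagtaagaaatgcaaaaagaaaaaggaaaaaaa
Hoxd9: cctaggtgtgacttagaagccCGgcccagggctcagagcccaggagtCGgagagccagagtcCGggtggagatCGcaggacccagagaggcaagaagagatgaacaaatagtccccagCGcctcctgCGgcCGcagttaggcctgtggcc
Hoxd10: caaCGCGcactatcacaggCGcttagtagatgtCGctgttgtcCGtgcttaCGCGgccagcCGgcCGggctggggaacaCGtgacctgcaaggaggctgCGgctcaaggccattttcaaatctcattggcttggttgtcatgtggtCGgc
Hoxa11: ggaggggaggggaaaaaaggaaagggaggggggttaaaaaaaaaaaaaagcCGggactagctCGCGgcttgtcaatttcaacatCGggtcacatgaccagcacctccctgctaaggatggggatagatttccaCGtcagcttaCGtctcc
Hoxb8: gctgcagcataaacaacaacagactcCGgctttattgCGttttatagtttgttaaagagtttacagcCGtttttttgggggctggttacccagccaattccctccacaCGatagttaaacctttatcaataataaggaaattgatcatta
CG pairs number 5 in Hoxd8, 7 in Hoxd9, 12 in Hoxd10, 6 in Hoxa11 and 4 in Hoxb8 of the 150 bases, and they ranged widely even among the neighbours expressed in EO771.

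The RefSeq table held 24 promoters of 22 of the 39 members. Over the 250 bases before the start, their median number of CG pairs was 12.5, against 6 over all 32851 promoters of the table. Searched on both strands, the motif TATAAA was in 4 of the 24 (16.7%, against 12.4% of all promoters), CCAAT in 14 (58.3% against 33.8%) and TGATNNAT, letters bound by PBX and HOX proteins together, in 4 (16.7% against 7.68%). Hoxb8 held all 3 motifs, Hoxd8 and Hoxd10 held CCAAT, and neither Hoxd9 nor Hoxa11 held any of them. These are matches of letters only.

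Outside HOXD, EO771 expressed genes of HOXC as far as Hoxc10, highest at Hoxc6 and Hoxc10, with Hoxa10 of HOXA and a stretch of HOXB. Hoxc10, a paralog of Hoxd10, was at 13.9, 13.0, 12.4 and 15.6 CPM, or 7.19 ± 0.740 RPKM, and Hoxa10, the third paralog, was at 8.42, 8.52, 4.54 and 5.33 CPM, or 2.05 ± 0.632 RPKM. Hoxc6, a gene of the thoracic region, was at 8.71, 11.5, 8.11 and 7.24 CPM. Both group 10 paralogs sit at an edge, since their posterior neighbours Hoxc11 and Hoxa11 had no count in any EO771 library grown alone, which allows up to 0.0209 CPM over the group. Hoxb6, expressed in the lateral plate mesoderm of the embryo, was at 6.51, 8.85, 6.71 and 6.03 CPM, while its posterior neighbour Hoxb7 had a mean of 0.0674 CPM. On the anterior side of Hoxb6, levels were low: Hoxb5 was at 1.64, 1.77, 1.14 and 1.15 CPM, Hoxb4 at 0.997, 1.36, 1.68 and 1.18 CPM and Hoxb3 at 0.733, 1.15, 1.17 and 1.04 CPM. In HOXC, Hoxc4 was at 2.55, 2.85, 2.77 and 2.69 CPM, Hoxc9 at 2.23, 2.72, 2.68 and 1.68 CPM and Hoxc8 at 1.47, 0.872, 1.14 and 0.814 CPM. The expressed stretch ended within a single gene step in each of the 4 clusters, after Hoxd10, Hoxc10, Hoxa10 and Hoxb6.

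In C2C12 alone the posterior HOXA and HOXC genes led. Hoxc10 was at 66.6, 60.7, 56.6 and 76.0 CPM, or 34.0 ± 4.40 RPKM, and Hoxa10 at 98.3, 110.3, 105 and 83.9 CPM, or 30.4 ± 3.48 RPKM, a difference per length within their spread. Hoxc11 was at 48.0, 43.3, 48.8 and 49.4 CPM, or 23.4 ± 1.36 RPKM, and Hoxa11, which patterns the middle segment of the limb, at 33.0, 36.8, 32.8 and 29.2 CPM, or 14.4 ± 1.36 RPKM. These group 11 genes were the members at 1 CPM or more in C2C12 and in neither other line: against a count of 0, Hoxc11 was at least 2250.5-fold and Hoxa11 at least 1596-fold lower in EO771. In MLg they were at 0.812 and 0.116 CPM, a log2 difference between C2C12 and MLg of 6.02 ± 0.18 for Hoxc11 and 8.29 ± 0.20 for Hoxa11 (SE, adjusted p = 5.34e-10 and 1.55e-10). Both genes were picked by these same levels, and Hoxa11 was tested through its counts in C2C12, so the p-values are a description. Hoxa11 shares 35.0% of its exon bases with Hoxa11os on the opposite strand, and whether the counting used strand is not stated in those sources.

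The rest of HOXA was expressed in C2C12 from end to end. Hoxa9, known from leukaemia, was at 47.8, 50.3, 58.3 and 43.4 CPM, Hoxa7 at 19.2, 19.8, 20.6 and 28.0 CPM and Hoxa13, a gene of the digits and the hindgut, at 4.89, 4.93, 4.50 and 4.67 CPM. The anterior genes were lower than Hoxa7 and Hoxa9: Hoxa5 was at 2.35, 2.01, 3.27 and 3.87 CPM, Hoxa6 at 1.28, 0.736, 1.59 and 2.12 CPM and Hoxa3 at 5.00, 5.20, 4.84 and 6.49 CPM. Hoxa2, which acts in the hindbrain and the second pharyngeal arch, was at 0.930, 1.09, 1.19 and 0.971 CPM, with Hoxa4 below it at a mean of 0.384 CPM. Per length, the HOXA genes from Hoxa2 to Hoxa6 stood between 0.241 and 1.64 RPKM and those from Hoxa7 to Hoxa11 between 7.61 and 30.4 RPKM.

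HOXC was expressed in C2C12 at 8 of 9 members. Hoxc9 was at 23.1, 20.7, 21.1 and 23.2 CPM, Hoxc6 at 21.9, 15.5, 16.0 and 32.0 CPM and Hoxc4 at 14.6, 11.9, 15.2 and 17.4 CPM. Lower down were Hoxc8, at 5.62, 5.22, 9.48 and 6.16 CPM, Hoxc13, a gene of the hair follicle and nail, at 6.18, 5.32, 4.75 and 7.86 CPM, and Hoxc5, at 4.96, 2.29, 3.41 and 5.20 CPM. Hoxc6 and Hoxc5 were lower in both R3 libraries, those of low myotube markers, than in the other pair, and Hoxa10 was higher in them. The part of differentiation in this was not tested. No HOXB member reached 1 CPM in C2C12, and the highest, Hoxb4, had a mean of 0.0946 CPM.

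In MLg alone the HOXB cluster led. Hoxb9 was at 115, 119, 124 and 116 CPM, or 46.0 ± 1.62 RPKM, the highest level per length among the members in the lines grown alone. Hoxb8 was at 42.2, 53.6, 50.9 and 57.2 CPM, or 19.4 ± 2.42 RPKM, Hoxb6 at 23.2, 31.2, 31.8 and 27.5 CPM and Hoxb7 at 19.2, 20.3, 19.3 and 21.2 CPM. The genes from Hoxb6 to Hoxb9 thus stood at 12.9 RPKM or more. In EO771 alone Hoxb9 had 4 counts in all and Hoxb8 2, and in C2C12 alone Hoxb9 and Hoxb7 had none, so that against a count of 0 Hoxb9 was at least 11531-fold and Hoxb7 at least 1942-fold lower in C2C12 than in MLg. Hoxb4, studied in blood stem cells, was at 19.5, 20.9, 23.7 and 19.9 CPM, Hoxb3 at 12.0, 14.9, 15.8 and 12.6 CPM and Hoxb2, a hindbrain gene, at 13.8, 12.6, 13.1 and 10.5 CPM. Hoxb3 shares 52.9% and Hoxb2 27.3% of exon bases with Hoxb3os on the opposite strand, so the limit given for Hoxa11 holds here too. In all, 10 of the 39 members share exon bases with a gene of the opposite strand. Hoxb5, which acts in lung development, was at 6.04, 7.00, 6.75 and 6.79 CPM and Hoxb13, a marker of the prostate, at 2.02, 0.967, 0.921 and 1.13 CPM, with Hoxb1 at the low end, at 0.0521 CPM.

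HOXA and HOXC in MLg were strongest in their middle. Hoxc8, a thoracic gene, was at 64.0, 70.3, 66.4 and 63.3 CPM, or 23.3 ± 1.12 RPKM, and Hoxa7 at 45.9, 57.2, 54.6 and 59.4 CPM, or 18.9 ± 2.06 RPKM. Both exceeded their level in C2C12, with a log2 difference of C2C12 against MLg of -3.16 ± 0.19 for Hoxc8 and -1.15 ± 0.14 for Hoxa7 (adjusted p = 9.94e-09 and 6.66e-06). Hoxc6 was at 21.4, 30.3, 25.8 and 26.4 CPM, Hoxc4 at 17.1, 15.2, 15.7 and 18.4 CPM and Hoxc9 at 12.4, 14.6, 11.9 and 13.1 CPM. Hoxa10 was at 15.6, 26.1, 23.0 and 21.5 CPM, Hoxc10 at 3.11, 6.73, 5.73 and 5.54 CPM and Hoxa9 at 1.39, 2.01, 2.10 and 2.11 CPM, each below its level in C2C12. Hoxa5, which is needed for lung development, was at 9.14, 12.1, 13.2 and 12.3 CPM, Hoxa3 at 7.78, 11.3, 9.14 and 10.3 CPM and Hoxa2 at 4.65, 4.73, 4.84 and 4.96 CPM. Lower HOXA members in MLg were Hoxa13 at 1.92, 4.07, 3.48 and 3.39 CPM, Hoxa4 at 1.65, 2.72, 2.79 and 2.43 CPM and Hoxa6 at 1.74, 1.83, 2.16 and 2.87 CPM. Hoxc13 was at 1.75, 5.76, 5.70 and 5.31 CPM and Hoxc5 at 3.46, 3.22, 4.74 and 3.55 CPM. Library R3-2 of MLg alone was the lowest of its group for most members expressed there, in all 3 clusters, among them Hoxa7, Hoxa10, Hoxb8, Hoxb9, Hoxc6 and Hoxc10.

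In the tests between the lines grown alone, 34 of the 39 members passed the filter on low counts, and those near 0 in one of the 2 lines compared passed through the other line, so their counts are a description. C2C12 and MLg differed at 23 of 34 members (8 higher in C2C12 and 15 lower), beside 61.9% of the 18755 genes tested. EO771 and C2C12 differed at 32 of 34 (12 higher in EO771 and 20 lower), beside 78.2% of genes. EO771 and MLg differed at 34 of 34 (6 higher in EO771 and 28 lower), beside 77.6% of genes. Of the calls, 3 rest on 4 to 10 counts in the higher line: Hoxd8 between C2C12 and MLg, and Hoxb7 and Hoxb9 between EO771 and C2C12, all with overlapping groups. Hoxc10 was the member expressed in all 3 lines that was higher in EO771 than in MLg, with a log2 difference of 1.38 ± 0.18 (adjusted p = 6.89e-06).

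Noncoding genes inside the clusters followed the same lines. Of the 16 listed noncoding and antisense genes in the files, 10 were tested between the lines. Hotair, which lies between Hoxc11 and Hoxc12, was at 5.08 ± 0.580 CPM in C2C12 alone and 1.42 ± 0.287 CPM in MLg alone, with no count in EO771 alone. Hoxa11os was at 7.11 ± 0.526 CPM in C2C12 alone and 0.00717 CPM in MLg alone. Hoxd3os1 was at 0.937 ± 0.263 CPM in EO771 alone and at or under 0.0261 CPM in the host lines alone. In MLg, counts also fell on the Mir196a-1 locus beside Hoxb9, at 9.87 ± 1.19 CPM, and on Gm53, chosen after its values were seen as the noncoding gene of highest level in HOXB, at 104 ± 7.06 CPM, with no count for either in EO771 or C2C12 alone. Libraries of this kind measure longer transcripts over a miRNA locus and not the mature miRNA. The HOX clusters carry the miR-196 and miR-10 families, known to target HOX messages, and their mature 5p sequences from RefSeq are shown because the loci lie among the members expressed here. Seeds, bases 2 to 8, are in capitals.
miR-196a-5p: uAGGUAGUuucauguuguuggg
miR-196b-5p: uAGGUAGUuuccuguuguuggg
miR-10a-5p: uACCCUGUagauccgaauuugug
miR-10b-5p: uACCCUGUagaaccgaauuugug
miR-196a and miR-196b share one seed, and miR-10a and miR-10b another. Mir10a beside Hoxb4 had 0.331 ± 0.199 CPM in MLg alone. The Mir196b locus lies within exon bases of Hoxa9 on the same strand, so its counts say nothing of its level.

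HOX proteins bind DNA with cofactors of the PBX, MEIS and PKNOX families, and 9 such genes were measured. Between EO771 and MLg 8 of the 9 differed, 1 higher and 7 lower in EO771, beside 77.6% of all genes, and between EO771 and C2C12 6 were lower in EO771, beside 78.2% of all genes. Meis1 was at 6.04 CPM in EO771 alone, 29.0 CPM in C2C12 alone and 125 CPM in MLg alone (log2 difference of EO771 against MLg -4.36 ± 0.11, adjusted p = 4.48e-13). Meis2 was, in the same order, at 30.3, 64.8 and 49.8 CPM. The median log2 difference of the 9 was -2.31 for EO771 against MLg, against -0.0767 over all genes tested. Of 12 homeobox genes that neighbour the clusters or act upstream of them, such as the CDX genes, 3 passed the filter on low counts, and none of the 12 exceeded 2 CPM in any group.

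In EO771 in contact with either host line, Hoxd9 was the HOX gene called lower. Of the 39 members 21 passed the filter on low counts. With C2C12, 2 of them were called at an adjusted p under 0.05 (Hoxa7 higher and Hoxd9 lower), beside 33% of all genes tested. With MLg, 5 were called (Hoxa7, Hoxb8, Hoxb9 and Hoxc8 higher and Hoxd9 lower), beside 9.59% of genes. Hoxa7, Hoxb8 and Hoxb9 were near 0 in EO771 alone and passed the filter through the group where they are high, so their calls are a description. Both comparisons share the 4 libraries of EO771 alone.

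Hoxd9 was at 18.8, 14.5, 12.2 and 17.2 CPM with C2C12 and 15.5, 18.1, 15.8 and 15.5 CPM with MLg, against 22.8, 22.3, 27.1 and 21.1 CPM alone. Every co-cultured library was below every library grown alone. The log2 change was -0.65 ± 0.13 with C2C12 (SE, n = 4, edgeR quasi-likelihood test with Benjamini-Hochberg adjustment, adjusted p = 0.00102) and -0.51 ± 0.13 with MLg (adjusted p = 0.0167). Between the cultures with C2C12 and with MLg the log2 difference of -0.14 ± 0.13 missed the threshold (adjusted p = 0.465). The call with C2C12 held in every setting tried. Settings that lost the call with MLg include the fits without EO771 alone R5-1 (adjusted p = 0.0942), without EO771 with MLg R6-2 (adjusted p = 0.0544) and the fit of all 28 libraries together (adjusted p = 0.253).

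The neighbours of Hoxd9 did not pass the test. Hoxd8 was at 19.7, 16.7, 15.0 and 15.2 CPM with C2C12 and 11.4, 16.0, 15.9 and 11.8 CPM with MLg, and Hoxd10 at 9.84, 13.1, 11.0 and 13.0 CPM with C2C12 and 11.7, 16.1, 16.9 and 11.2 CPM with MLg. Both overlapped their values alone, with log2 changes of 0.03 ± 0.14 and -0.16 ± 0.14 for Hoxd8 and -0.04 ± 0.16 and 0.30 ± 0.16 for Hoxd10, adjusted p from 0.324 to 0.899. Hoxd4 was at 0.408, 1.14, 0.652 and 0.622 CPM with C2C12 and 0.873, 0.828, 1.20 and 1.27 CPM with MLg, against 0.645, 1.77, 1.11 and 0.505 CPM alone. Whether the change of Hoxd9 differs from that of its neighbours was not tested.

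**Figure D3:**
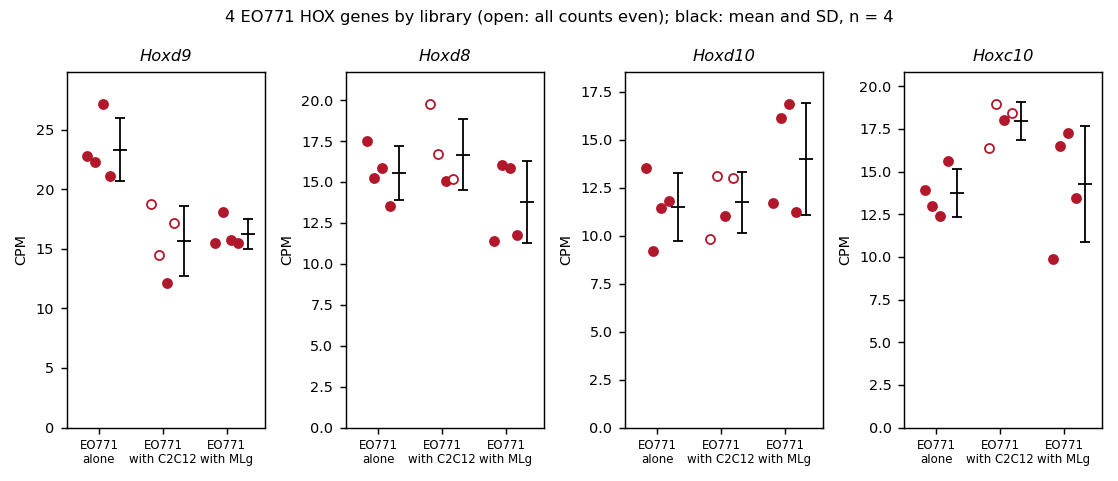
Level in CPM of Hoxd9, Hoxd8, Hoxd10 and Hoxc10 in the 12 EO771 libraries, one point per library (open where every count of the library was even), with the mean and SD of each group of 4 in black. For Hoxd9 all 8 co-cultured libraries lie below the 4 libraries grown alone, and for Hoxd8 and Hoxd10 the groups overlap.

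The other EO771 genes were given no call. Hoxc10 was at 16.4, 18.9, 18.0 and 18.4 CPM with C2C12, above every library alone, and 9.85, 16.5, 17.3 and 13.4 CPM with MLg, with log2 changes of 0.31 ± 0.15 and 0.06 ± 0.15 that missed the threshold (adjusted p = 0.11 and 0.871). Hoxc6 was at 11.3, 10.3, 10.1 and 9.39 CPM and 8.34, 7.92, 7.43 and 10.4 CPM, and Hoxb6 at 5.30, 6.03, 5.43 and 5.53 CPM and 7.23, 5.34, 6.51 and 8.04 CPM, in the same order of partners. Hoxa10 was at 7.75, 7.68, 8.26 and 8.22 CPM and 4.55, 8.52, 5.99 and 5.32 CPM, with libraries alone on both sides. Among the lower genes, Hoxc4 was at 3.73, 2.11, 4.13 and 3.32 CPM with C2C12 and 2.80, 2.32, 2.67 and 3.36 CPM with MLg, Hoxc9 at 2.10, 1.77, 2.25 and 2.42 CPM and 3.04, 2.05, 2.89 and 3.48 CPM, and Hoxc5 at 1.40, 1.43, 2.28 and 0.760 CPM and 1.08, 1.12, 0.817 and 1.79 CPM. In HOXB, Hoxb3 was at 1.28, 1.65, 1.77 and 1.31 CPM with C2C12 and 1.05, 0.745, 0.626 and 1.20 CPM with MLg, Hoxb4 at 0.874, 1.43, 1.45 and 1.04 CPM and 0.723, 0.972, 0.708 and 1.64 CPM, and Hoxb5 at 1.57, 1.43, 1.74 and 1.31 CPM and 0.753, 0.703, 1.52 and 2.35 CPM. Hoxa9 was at 1.46, 0.759, 0.942 and 1.31 CPM with C2C12 and 0.572, 0.393, 0.572 and 0.882 CPM with MLg, against 0.733, 0.949, 0.656 and 0.842 CPM alone.

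The members called higher in EO771 with MLg are ones that MLg expresses at a high level. EO771 alone held Hoxa7, Hoxb8 and Hoxb9 near 0, and Hoxc8 at a mean of 1.07 CPM. Hoxb9 was at 2.41, 1.97, 0.735 and 3.50 CPM with MLg, against 0, 0, 0.114 and 0 CPM alone (adjusted p = 5.85e-05). Hoxb8 was at 0.994, 0.869, 0.844 and 0.931 CPM, 65.1-fold its level alone with a 95% counting interval of 17.7 to 542 (adjusted p = 8.84e-05). Hoxa7 was at 0.873, 0.952, 0.490 and 0.980 CPM, against 0, 0.0513, 0.0571 and 0.0561 CPM alone (log2 change 4.22 ± 0.66, adjusted p = 0.000201). No library of these 3 genes overlapped between the groups. Hoxc8 was at 3.94, 1.66, 1.99 and 3.82 CPM, against 1.47, 0.872, 1.14 and 0.814 CPM alone (log2 change 1.42 ± 0.34, adjusted p = 0.0101), and here too the groups did not overlap. The same 4 were the members called between EO771 with C2C12 and EO771 with MLg, all lower with C2C12, 4 of 21 tested beside 27.7% of genes. Of these, Hoxa7, Hoxb8 and Hoxb9 passed the filter through the libraries with MLg, where they are high, so this count is a description. With C2C12, Hoxa7 was at 0.116, 0.0844, 0.145 and 0.414 CPM, a log2 change of 1.98 ± 0.74 (adjusted p = 0.0457) that was lost in 6 of the 8 fits leaving out 1 library and without the libraries of even counts (adjusted p = 0.44). Hoxc11 and Hoxa11, which EO771 alone did not express, were at 0.699, 0.464, 0.0724 and 0.622 CPM and 0.408, 0, 0.0724 and 0.553 CPM with C2C12 and did not pass the filter for a test.

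These values were set against the partner's own. In each co-cultured group, the members near 0 in the line alone (under 0.05 CPM) and at 1 CPM or more in the partner alone were summed and given as a percent of their sum in the co-cultured partner, beside the median of the same percent over genes outside the HOX clusters that are at 20 CPM or more in the partner and at most 0.05 CPM in the line alone. In EO771 with MLg the 11 such members stood at 1.96 ± 0.628% of MLg (SD, n = 4) and the 253 other genes at a median of 1.52 ± 0.398%. In EO771 with C2C12 the 9 members stood at 0.985 ± 0.592% and the 271 other genes at a median of 0.911 ± 0.338%. With MLg, single members ran from 1.51% (Hoxa5) to 2.48% (Hoxc13), with Hoxb9 at 2.18%, Hoxb8 at 2.00% and Hoxa7 at 1.59%. With C2C12 they ran from 0% (Hoxa13) to 3.93% (Hoxa2, on 6 counts over the group). The 12 myotube markers summed to 80.8 to 313 CPM in EO771 with C2C12, all at 1 CPM or more, against 8.22 to 9.67 CPM in EO771 alone, where Myod1, Myog, Mymk, Actc1 and Myh1 had no count. The part of RNA or cells of the partner in these rises was not tested. With the partner's counts subtracted in proportion, Hoxa7, Hoxb8 and Hoxb9 fell below the filter and had no test, the change of Hoxc8 with MLg was 0.87 (adjusted p = 0.254), and Hoxd9 was still called in each comparison with EO771 alone, with log2 changes of -0.62 with C2C12 and -0.47 with MLg (adjusted p = 0.00201 and 0.044). Co-cultured C2C12 and MLg held Hoxd9 at only 0.729 and 0.974 CPM, so the subtraction could take little from it.

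**Figure D4:**
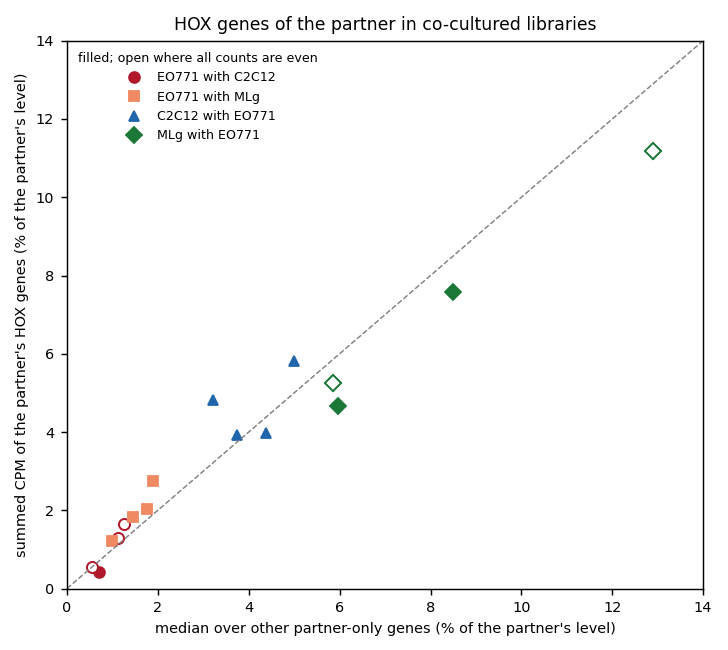
For each of the 16 co-cultured libraries, the summed CPM of HOX genes near 0 in the line alone, as a percent of the co-cultured partner's sum, against the median of the same percent over other genes of the partner; the dashed line marks equal values and open symbols the libraries whose counts were all even. Libraries of EO771 lie under 3% on both axes, those of C2C12 between 3 and 6%, and those of MLg reach 11.2% and 12.9%.

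In C2C12 in contact with EO771, 2 of 23 members tested were called, Hoxd8 and Hoxd9, both higher, beside 2.68% of genes. Having no count in C2C12 alone, both passed the filter through the co-cultured libraries, so the count of calls is a description. Hoxd8 was at 0.827, 1.26, 0.556 and 0.812 CPM and Hoxd9 at 0.942, 0.905, 0.572 and 0.496 CPM, against no count in any library of C2C12 alone. Over the groups this was at least 79.5-fold higher for Hoxd8 (adjusted p = 0.0016) and at least 68.6-fold higher for Hoxd9 (adjusted p = 0.00194). Both are among the 4 HOX genes of highest level per length in EO771 alone, and they stood at 5.19% and 4.66% of their level in the co-cultured EO771. The 7 members of this kind summed to 4.63 ± 0.884% of EO771, and the 40 other EO771 genes stood at a median of 4.08 ± 0.778%. Hoxb6 was at 0.391, 0.384, 0.302 and 0.0903 CPM and Hoxd10 at 0.138, 0.274, 0.254 and 0.384 CPM, 5.23% and 2.24% of EO771. Hoxd4, Hoxb5 and Hoxb3 stood at 13.2%, 8.71% and 6.65%, on 21, 24 and 18 counts over the group. With the partner's counts subtracted, Hoxd8 and Hoxd9 fell below the filter on low counts and had no test, 0 of the members tested were called by edgeR, and the part of EO771 RNA or cells in the rise was not tested.

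The members that C2C12 itself expresses did not pass the test in the main fit. Hoxa10 was at 103, 61.0, 70.8 and 67.1 CPM with EO771, against 98.3, 110.3, 105 and 83.9 CPM alone, with a log2 change of -0.45 ± 0.19 (adjusted p = 0.417). Leaving out 1 library at a time, its change ran from -0.65 to -0.36 and its adjusted p from 0.0385, a call, to 0.77. These fits left out the R number, and deviations of C2C12 libraries that share a number correlated at 0.549 and 0.436. With the R number as a block, edgeR gave Hoxa10 a log2 change of -0.23 (adjusted p = 0.759). In each group the R3 libraries, of low myotube markers, were the highest, and without them the 3 libraries with EO771 were all below the 2 alone. Hoxc10 was at 42.2, 63.3, 53.0 and 52.6 CPM, a log2 change of -0.35 ± 0.13 (adjusted p = 0.313). Hoxc11 was at 54.4, 40.6, 42.2 and 35.4 CPM, Hoxa11 at 37.7, 30.3, 25.3 and 26.6 CPM and Hoxa9 at 55.1, 43.9, 42.2 and 37.1 CPM. These posterior genes overlapped their values alone. Hoxc9 was at 20.5, 25.9, 18.9 and 16.2 CPM, Hoxa7 at 22.3, 21.7, 20.2 and 15.3 CPM and Hoxc6 at 17.8, 24.5, 30.2 and 25.7 CPM. Hoxc4 was at 15.4, 17.5, 16.4 and 15.6 CPM, Hoxc8 at 7.22, 12.5, 5.13 and 6.73 CPM and Hoxc13 at 5.91, 9.49, 8.10 and 8.53 CPM. Lower were Hoxc5, at 3.65, 5.10, 5.08 and 4.54 CPM, Hoxa3, at 7.58, 5.38, 5.43 and 4.51 CPM, and Hoxa13, at 4.48, 3.43, 3.56 and 4.63 CPM. Hoxa5 was at 3.10, 4.20, 3.02 and 4.22 CPM, Hoxa6 at 1.01, 0.631, 1.68 and 1.42 CPM and Hoxa2 at 1.36, 0.795, 0.778 and 0.700 CPM. Over the 17 members tested with a mean of at least 1 CPM, the median log2 change was -0.16, with 8 above 0 and 9 below, beside a median of -0.00240 over all genes tested.

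In MLg in contact with EO771, 7 of 31 members tested were called, beside 14.7% of genes: Hoxd8, Hoxd9 and Hoxd10 higher, and Hoxb4, Hoxb6, Hoxb9 and Hoxc5 lower. The 3 HOXD genes were at or near 0 in MLg alone and passed the filter through the co-cultured libraries, so their calls are a description. Hoxd9 was at 1.54, 0.695, 0.676 and 0.985 CPM, against no count in MLg alone, at least 82.8-fold higher over the groups (adjusted p = 9.47e-05). Hoxd8 was at 1.95, 0.661, 0.728 and 1.02 CPM and Hoxd10 at 1.54, 0.834, 0.494 and 1.37 CPM, against 4 and 8 counts over the 4 libraries alone (adjusted p = 0.000102 and 0.000502). All 3 were highest in R5-1, the library in which other genes of EO771 also stood highest, at 12.9% of their level in EO771. With Hoxd4, the 4 members of this kind summed to 7.17 ± 2.95% of EO771, and the 40 other EO771 genes stood at a median of 8.31 ± 3.29%. With the partner's counts subtracted, all 3 fell below the filter on low counts and had no test, and the part of EO771 RNA or cells was not tested.

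The falls in MLg were small. Hoxb9 was at 99.0, 96.3, 96.4 and 104 CPM with EO771, against 115, 119, 124 and 116 CPM alone, with no overlap and a log2 change of -0.23 ± 0.06 (adjusted p = 0.026). Hoxb4 was at 16.6, 15.6, 17.3 and 16.9 CPM, against 19.5, 20.9, 23.7 and 19.9 CPM alone, also with no overlap (-0.32 ± 0.09, adjusted p = 0.0334). Hoxb6 was at 17.0, 17.0, 19.6 and 25.7 CPM, against 23.2, 31.2, 31.8 and 27.5 CPM alone, and the groups overlapped (-0.50 ± 0.13, adjusted p = 0.0266). Hoxc5 was at 1.78, 2.05, 2.50 and 2.23 CPM, against 3.46, 3.22, 4.74 and 3.55 CPM alone, with no overlap (-0.78 ± 0.19, adjusted p = 0.0175). With the partner's counts subtracted, the log2 changes were -0.09 for Hoxb9, -0.18 for Hoxb4, -0.39 for Hoxb6 and -0.71 for Hoxc5, and none was called (adjusted p from 0.0575 to 0.49). Without the 2 libraries of even counts, or without MLg alone R6-1, none of the 4 falls was called.

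**Figure D5:**
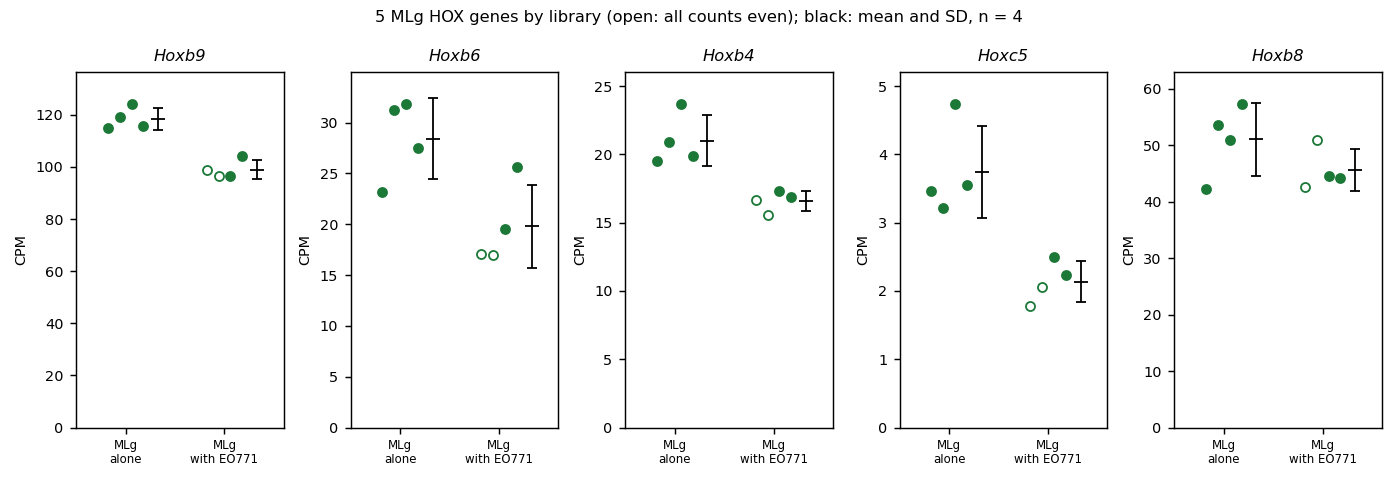
Level in CPM of Hoxb9, Hoxb6, Hoxb4, Hoxc5 and Hoxb8 in the 8 MLg libraries, one point per library (open where every count of the library was even), with the mean and SD of each group of 4 in black. The groups do not overlap for Hoxb9, Hoxb4 and Hoxc5, and overlap for Hoxb6 and Hoxb8.

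The other members of MLg were given no call. In HOXB, Hoxb8 was at 42.6, 50.9, 44.5 and 44.2 CPM, Hoxb7 at 18.9, 22.7, 19.8 and 17.3 CPM and Hoxb5 at 5.92, 4.10, 5.04 and 4.78 CPM. Hoxb3 was at 8.52, 11.7, 10.9 and 13.1 CPM, Hoxb2 at 12.0, 9.46, 9.85 and 10.2 CPM and Hoxb13 at 0.769, 1.29, 0.910 and 1.29 CPM. Hoxb5 did not overlap its values alone and missed the threshold, with a log2 change of -0.40 ± 0.15 (adjusted p = 0.0872). In HOXC, Hoxc8 was at 53.0, 69.7, 61.0 and 68.3 CPM, Hoxc6 at 17.5, 23.9, 26.9 and 25.3 CPM and Hoxc9 at 12.8, 15.9, 14.5 and 11.8 CPM. Hoxc4 was at 12.8, 12.7, 13.5 and 14.7 CPM, Hoxc10 at 6.63, 9.94, 7.82 and 7.41 CPM and Hoxc13 at 5.21, 7.09, 5.59 and 6.51 CPM. Hoxc10 was the member with the largest change upward among those MLg expresses alone, at 0.63 ± 0.22 (adjusted p = 0.0733), with overlapping groups. In HOXA, Hoxa7 was at 45.9, 57.0, 50.7 and 54.1 CPM, Hoxa10 at 20.7, 22.8, 21.7 and 22.1 CPM and Hoxa5 at 9.65, 10.8, 8.63 and 9.52 CPM. Hoxa3 was at 6.10, 8.69, 7.85 and 8.78 CPM, Hoxa2 at 3.37, 3.69, 2.13 and 3.92 CPM and Hoxa13 at 2.72, 2.68, 3.35 and 2.91 CPM. Hoxc4 and Hoxa2 were also below every value alone and were not called. The low genes Hoxa4, Hoxa9 and Hoxa6 were at 1.99, 1.23 and 1.53 CPM on average. Over the 26 members tested with a mean of at least 1 CPM, 21 changes were below 0 and 5 above, with a median of -0.24 on the log2 scale, beside -0.00487 over all genes tested. Other genes of EO771 stood at 5.86 to 12.9% of their level in EO771 in these MLg libraries.

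The C2C12 and MLg responses were compared directly. Of 32 members tested, 3 differed (Hoxb6, Hoxb5 and Hoxb4), beside 1.84% of genes, each with a change more positive in C2C12 than in MLg. Hoxb5 and Hoxb6 did not pass the filter in the fit of C2C12 by itself and were tested here through MLg, where they are high. Their calls, and so the count of calls, are a description. The log2 difference was 3.93 ± 0.66 for Hoxb6 (adjusted p = 0.00295), 2.90 ± 0.54 for Hoxb5 (adjusted p = 0.00635) and 2.10 ± 0.37 for Hoxb4 (adjusted p = 0.00439). In C2C12 these genes went from 0.0247, 0.0194 and 0.0946 CPM alone to 0.292, 0.132 and 0.345 CPM with EO771, and in MLg from 28.4, 6.64 and 21.0 to 19.8, 4.96 and 16.6 CPM. EO771 itself, in those cultures, expressed them at 5.57, 1.51 and 1.20 CPM with C2C12 and 6.78, 1.33 and 1.01 CPM with MLg. With the partner's counts subtracted, the log2 differences were 2.41 for Hoxb6, 1.87 for Hoxb5 and 1.81 for Hoxb4, and none passed the threshold (adjusted p = 0.307, 0.355 and 0.0771).

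The genes around the HOX system were counted in the same fits. Among the 9 cofactors, 4 of 9 rose and 1 fell in EO771 with C2C12, led by Meis2 (log2 change 0.49 ± 0.13, adjusted p = 0.00607) and Pbx3 (-0.49 ± 0.12, adjusted p = 0.00418), beside 33% of all genes called. In EO771 with MLg 1 of 9 rose and 0 fell, beside 9.59% of all genes called, the one being Pknox2, which EO771 alone did not express and MLg expressed at 35.9 CPM. Pknox2 thus passed the filter through co-cultured libraries, so its call is a description. In MLg with EO771 0 of 9 rose and 3 fell, beside 14.7% of all genes called, among them Pbx3 (-0.65 ± 0.12, adjusted p = 0.00347) and Pknox2 (-0.56 ± 0.10, adjusted p = 0.0019). Their median log2 change there was -0.27, beside -0.00487 over all genes. In C2C12 with EO771, edgeR called 0 of the 9 cofactors, 0 of the 22 Polycomb genes and 0 of the 13 activating chromatin genes, beside 2.68% of all genes called.

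Polycomb complexes keep HOX genes silent and trithorax complexes keep them active. In EO771 with C2C12 2 of 22 rose and 3 fell among the Polycomb genes, with Jarid2 higher (0.54 ± 0.11, adjusted p = 0.000993) and Eed, a core subunit, lower (-0.33 ± 0.09, adjusted p = 0.00821). The median log2 change of the list was -0.02, and 33% of all genes were called in this comparison. Among the activating genes 2 of 13 rose and 4 fell, beside the same 33%, with Kdm6b, which removes the Polycomb mark, higher (1.04 ± 0.17, adjusted p = 0.000128) and Wdr5, a trithorax subunit, lower (-0.45 ± 0.08, adjusted p = 0.000449). In MLg with EO771 3 of 22 rose and 1 fell among the Polycomb genes, beside 14.7% of all genes called, with the methyltransferase Ezh2 higher (0.33 ± 0.08, adjusted p = 0.0126).

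Retinoic acid switches on anterior HOX genes in the embryo. Of its pathway, 2 of 12 rose and 1 fell in EO771 with C2C12, beside 33% of all genes called, with Cyp26b1, which breaks retinoic acid down, at 16.3 CPM alone and 58.2 CPM with C2C12 (1.76 ± 0.15, adjusted p = 1.32e-07) and 24.0 CPM with MLg (0.57 ± 0.15, adjusted p = 0.0189). In C2C12 with EO771 1 of 16 rose and 2 fell, beside 2.68% of all genes called, a fall being that of Crabp2, which carries retinoic acid to its receptor, from 163 to 84.1 CPM (-1.0 ± 0.19, adjusted p = 0.0232). Of 50 other positional factors, 6 of 20 rose and 3 fell in EO771 with C2C12, beside 33% of all genes called, and 4 of 20 rose and 3 fell with MLg, beside 9.59%. Dlx2, a homeobox gene of the jaw and forebrain, was at 40.1 CPM alone, 23.7 CPM with C2C12 and 20.0 CPM with MLg (-0.83 ± 0.11 and -0.99 ± 0.11, adjusted p = 1.34e-05 and 3.76e-06). Prrx1, a mesenchymal homeobox gene, was higher with C2C12 (0.93 ± 0.13, adjusted p = 2.21e-05), and C2C12 alone expressed it at 592 CPM against 70.9 CPM in EO771 alone. Genes of C2C12 outside the HOX clusters stood at a median of 0.911 ± 0.338% in EO771 with C2C12. The part of C2C12 RNA in the rise of Prrx1 was not tested.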

How the data were processed

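The authors deposited 1 table of raw counts per gene for each of 28 libraries, with no normalization; poly(A)-selected mRNA libraries were made with a stranded kit, per the labels' protocols. STAR 2.7.10a, Subread 2.0.1 with featureCounts, fastp and DESeq2 are named in the submitters' processing notes. Genome build, annotation and strand setting are not stated in those sources. Symbols, exon lengths and positions come from GENCODE M21.

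Levels are CPM of the library total, and RPKM by exon length. Groups were compared with the edgeR 4.0.16 quasi-likelihood test in R 4.3.3 on the counts as deposited (TMM scaling, filterByExpr, 1 mean per group). Each line was fitted by itself (12 EO771, 8 C2C12 and 8 MLg libraries), the lines alone and the host responses in fits of 12 and 16 libraries. P-values were adjusted by Benjamini-Hochberg over all genes tested, with calls under 0.05. The fits were tested on simulated data. Folds against a count of 0 use a floor of 3 counts over the group, and intervals are exact at 95%, for counting error only.

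The members and the gene lists were chosen with earlier results of these data known. Members at 1 CPM or more in a group are given by library or mean, except 1, which is not reported here by itself, nor are 2 genes of other lists; they stay in the counts and sums. Of other lists, genes are named from the 4 called ones of highest mean CPM in the groups compared. Alternatives were DESeq2 1.42.0, other scalings, no filter, 1 fit of all libraries, a block on the R number, halved even counts, subtraction of the partner's counts (the library's share of partner-only genes times the partner's counts) and leaving out each library. Leaving out the even-count libraries or the C2C12 R3 libraries, and subtraction in comparisons between cultures, were chosen after seeing the data.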

Additional observations from a re-analysis of the deposited data

Results flagged for a closer look

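Of 133 groups of 4 libraries in which a member had a mean of at least 1 CPM, 4 held a library far from the other 3 by Dixon's test, and chance gives about 1 in 20. Hoxa7 was at 28.0 CPM in C2C12 alone R5-1, above 19.2, 19.8 and 20.6 CPM in the others. In MLg alone, R3-2 was the low library both for Hoxa9, at 1.39 CPM, and for Hoxc13, at 1.75 CPM. Hoxd9 was at 18.1 CPM in EO771 with MLg R6-1, above 15.5 to 15.8 CPM in the others and still under every library of EO771 alone.

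By the edgeR test of the difference itself, the response to EO771 was called different between C2C12 and MLg for 3 neighbouring HOXB genes. Of these, Hoxb5 and Hoxb6 passed the filter on low counts through MLg, where they are high, so their calls are a description. The difference was 3.93 on the log2 scale for Hoxb6 (adjusted p = 0.00295), 2.90 for Hoxb5 (adjusted p = 0.00635) and 2.10 for Hoxb4 (adjusted p = 0.00439). C2C12 alone holds these genes at under 0.1 CPM, and with the partner's counts subtracted the differences were 2.41, 1.87 and 1.81, none of them past the threshold (adjusted p = 0.307, 0.355 and 0.0771).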

How the results depend on the processing

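The number of HOX genes called in co-culture depends on the processing, while Hoxd9 in EO771 with C2C12 was called under every alternative run. The counts of calls in this section stand without the share of all genes called under each setting, so they describe the settings and not the members. With the partner's counts subtracted, edgeR called 1 member in each of the 3 EO771 comparisons and 0 in C2C12, in MLg and between their responses. In the fits of a single line, the called members near 0 in the line alone then fell below the filter on low counts and had no test. In 1 fit of all 28 libraries the calls were 5 in EO771 with C2C12, 8 in EO771 with MLg, 12 between these groups and 7 in C2C12. With no filter on low counts they were 8 in EO771 with MLg and 7 between the EO771 cultures. At an adjusted p under 0.01 they were 1 in EO771 with C2C12, 3 in EO771 with MLg and 3 in MLg. DESeq2 called 11 in MLg and 5 between the host responses. With even counts halved, 1 was called in EO771 with C2C12. Without the even-count libraries 1 was called there, 2 between the EO771 cultures and 3 in MLg. At 2 CPM in place of 1, EO771 alone held 9 members.

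Leaving out 1 library at a time gave 1 to 2 calls in EO771 with C2C12, 2 to 4 in C2C12 (4 without C2C12 with EO771 R3-1) and 3 to 7 in MLg (3 without MLg alone R6-1, and 4 without R5-2 or R6-2 alone or without R6-1 or R6-2 with EO771). Hoxa10, which C2C12 expresses, then reached an adjusted p as low as 0.0385 in C2C12 with EO771. The comparisons of the lines alone gave 21 to 24, 31 to 32 and 34 calls.

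With the R number as a replicate block, 1 member was called in EO771 with C2C12, Hoxd9 in EO771 with MLg had an adjusted p of 0.0891, and the other counts stayed within 1.5 times. Hoxc10 was then also called between the C2C12 and MLg responses, with a log2 difference of -1.13 (adjusted p = 0.0249). Deviations of libraries that share a number correlated at 0.0569, 0.0295 and 0.0168 in EO771 with C2C12, and the numbers were not taken as pairs. In C2C12 they correlated at 0.549 and 0.436, with 2 shared numbers, so there the main fit left out a shared factor. With the block, edgeR gave log2 changes in C2C12 with EO771 of -0.23 for Hoxa10 (adjusted p = 0.759) and -0.46 for Hoxc10 (adjusted p = 0.211).

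Signs turned only in log2 changes near 0 that were not called. Hoxd10 in EO771 with C2C12 was at 0.033 with library totals, 0.015 in the fit of all libraries, and -0.15 to 0.042 leaving out 1 library. Hoxd8 there was at -0.10 without the even-count libraries and -0.054 to 0.082 leaving out 1 library. Hoxd8 in EO771 with MLg was at 0.0087 with the block, and Hoxb8 in MLg at 0.0068 after subtraction. The cause was not tested. Depth limits members under about 0.1 CPM, where few counts decide a fold.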
